A study of Homo sapiens with 15 samples.

Results

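The transcripts described here encode the subunits of oxidative phosphorylation, the enzyme chain of the inner mitochondrial membrane. Symbols of the deposited tables were taken where their name marks a subunit of complexes I to V (MT-ND, MT-CO, MT-CYB and MT-ATP; NDUFA, NDUFB, NDUFC, NDUFS and NDUFV with a number; SDHA to SDHD; UQCR; CYC1; COX4 to COX8; ATP5). This gave 104 of the 17360 symbols listed in any library. All 13 protein-coding genes of the mitochondrial genome were among them, and 91 were nuclear. Of the nuclear symbols, 79 are subunits or tissue isoforms of subunits. The other 12 are 8 pseudogenes, the readthrough transcript ATP5J2-PTCD1 and 3 genes that are not counted as subunits here (ATP5S, ATP5SL and COX7A2L, of which COX7A2L is a factor for the assembly of respiratory supercomplexes).

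All libraries came from total RNA of A375, a human melanoma cell line with an activating BRAF mutation, grown in medium with serum. In 1 experiment, cells that overexpress VAV1, a guanine nucleotide exchange factor of small GTPases, were given saracatinib, an inhibitor of SRC family kinases, or vehicle, and cells with empty vector (EV) were given vehicle. In a second experiment, cells that overexpress RAC1 P29S, a RAC1 variant known from melanoma, and EV cells were left untreated. Each of the 5 groups has 3 libraries, called biological triplicates by the submitters, and a p-value here reflects variation among those triplicates. Neither a dose nor a duration of saracatinib is given in the labels, and EV cells with saracatinib are not analysed here. No label says whether a cell population is 1 clone. The genotype entry of the 3 RAC1 P29S samples names the empty vector, against their titles, and the titles were followed. RAC1 stood at 14.89 to 14.95 on the log2 scale in the libraries titled RAC1 P29S and at 11.87 to 11.90 in untreated EV libraries. VAV1 stood at 14.10 to 14.16 with saracatinib and 13.86 to 13.94 with vehicle in VAV1 libraries, against 1.90 to 2.49 in EV vehicle libraries.

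Complex I (NADH dehydrogenase), complex III (cytochrome bc1) and complex IV (cytochrome c oxidase) pump protons as electrons pass to oxygen, complex II (succinate dehydrogenase) feeds electrons in from the citric acid cycle, and complex V (ATP synthase) uses the proton gradient to make ATP. Complexes I, III, IV and V are built from subunits of both genomes, and complex II from nuclear subunits alone. The mitochondrial genes are transcribed as long polycistronic RNAs by a dedicated polymerase and cut into shorter RNAs, whose stability differs. The nuclear genes have their own promoters, so the levels of the 2 sets can move apart.

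The deposited values are log2 of a normalized count plus 1, and each library summed to 14443900.0 to 16262800.0 normalized counts. The experiments were scaled separately and their libraries were not set against each other. Tests were run with limma on all 14410 genes of the vehicle experiment and 14036 of the untreated one that reached 10 normalized counts in 3 libraries, and a gene is called where its Benjamini-Hochberg adjusted p over all genes tested was under 0.05. Of the members, 94 of 101 listed passed this filter in the vehicle experiment and 96 of 100 listed in the untreated one. The members that did not pass were ATP5A1P10, ATP5A1P8, COX4I1P2, COX6CP13, COX7A1, COX7BP1 and UQCRFS1P1 in the vehicle experiment and ATP5G1P4, COX4I1P2, COX6A1P2 and UQCRHL in the untreated one. Of the melanocyte lineage markers, SOX10 was at 10.77 to 13.26 on the log2 scale and MITF at 8.27 to 10.12, while PMEL reached only 5.49 and MLANA 4.45. The melanocyte and epithelial lists differed between groups. The summed level of the listed melanocyte markers was 3579.9 to 3725 normalized counts with saracatinib, 2986 to 3127 in VAV1 vehicle and 8993 to 9511 in EV vehicle libraries, and 5400.0 to 5808 in RAC1 P29S and 11218 to 12247 in untreated EV libraries. The epithelial list, nearly all of it KRT8 and KRT18, summed to 7962 to 8382 with saracatinib, 12924 to 13895 in VAV1 vehicle and 5886 to 6672 in EV vehicle libraries, and to 6041 to 6745 in RAC1 P29S and 2920.0 to 3337 in untreated EV libraries. The fibroblast list, of which PDGFRB was highest at up to 7.999 on the log2 scale, summed to 321 to 363 normalized counts with saracatinib, 373 to 465 in VAV1 vehicle and 357 to 422 in EV vehicle libraries, and 195 to 257 in RAC1 P29S and 123 to 220.1 in untreated EV libraries, with overlap between VAV1 vehicle and EV vehicle and between RAC1 P29S and untreated EV. The haematopoietic markers PTPRC and CD14 stayed at or under 4.50 on the log2 scale, CD3E is not analysed here, and the endothelial markers PECAM1 and CDH5 reached 5.82 and 3.40. The part of these shifts in the results below was not tested.

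The 13 mitochondrially encoded members together held 1.01 to 2.003% of a library, and their share varied far more between libraries than the nuclear share. They made up 2.003, 1.44 and 1.67% of normalized counts in the VAV1 saracatinib libraries, 1.01, 1.38 and 1.23% in VAV1 vehicle and 1.45, 1.65 and 1.87% in EV vehicle libraries. All 3 VAV1 vehicle libraries lay below all 6 others of the experiment. In bulk RNA a lower level in every cell and fewer cells with the transcript cannot be told apart. In the untreated experiment the share was 1.29, 1.43 and 1.40% in RAC1 P29S and 1.31, 1.29 and 1.59% in EV libraries, with overlapping groups and the third EV library highest. The nuclear members held 1.28 ± 0.0250% with saracatinib, 1.15 ± 0.0492% in VAV1 vehicle and 1.14 ± 0.0158% in EV vehicle libraries, and 1.15 ± 0.0199% in RAC1 P29S and 1.19 ± 0.0198% in untreated EV libraries (SD, n = 3 each).

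**Figure D1:**
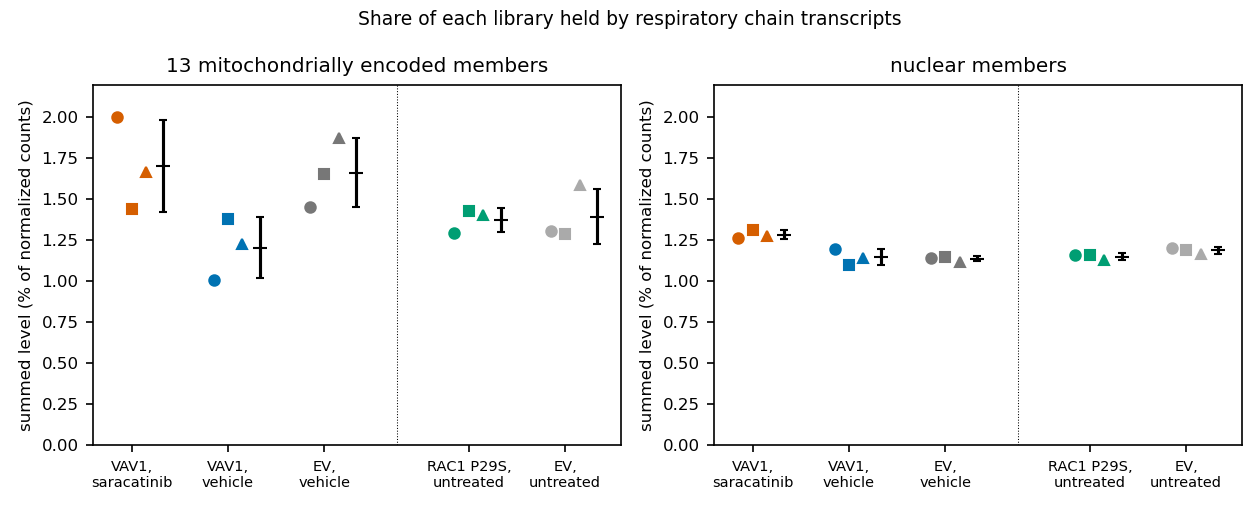
Summed level of the 13 mitochondrially encoded members (left) and of the nuclear members (right) as a percentage of each library's normalized counts; circles, squares and triangles are replicates 1, 2 and 3, and bars give the mean and SD of 3 libraries. The mitochondrial share of VAV1 vehicle libraries is below that of the other vehicle-experiment groups, while the nuclear shares all lie between 1.10 and 1.31%.

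The log2 ratio of mitochondrial to nuclear members, which needs no scaling factor, was 0.66, 0.13 and 0.38 with saracatinib, -0.25, 0.33 and 0.11 in VAV1 vehicle and 0.35, 0.52 and 0.74 in EV vehicle libraries. VAV1 vehicle libraries were thus all below the EV vehicle libraries, with a mean difference of -0.48, and overlapped the saracatinib libraries. The mean difference was 0.33 for saracatinib over vehicle in VAV1 cells and -0.14 for VAV1 saracatinib over EV vehicle. RAC1 P29S libraries had ratios of 0.15, 0.30 and 0.32, against 0.12, 0.11 and 0.45 in untreated EV libraries, a mean difference of 0.03. No test was made of this ratio, which is a score over the members.

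With VAV1 overexpression, 4 of the 13 mitochondrially encoded members fell, MT-CYB of complex III, MT-CO2 and MT-CO3 of complex IV and MT-ATP6 of complex V, and none was called higher. MT-CO1 of complex IV and MT-ATP8 of complex V did not pass the test, and limma called none of the 13 without the second or without the third EV vehicle library. The 7 mitochondrial complex I subunits had log2 fold changes between -0.61 and 0.05, and none of them passed. The 4 calls among 13 compare with 20.1% of all genes called lower and 43.7% called in either direction. The median log2 fold change of the 13 was -0.48, against 0.02 over all genes tested. The 2 groups did not overlap, with VAV1 below, for 10 of the 13, against 24.5% of all genes.

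MT-CO2, the copper-bearing subunit that takes electrons from cytochrome c, stood at 13.62, 14.10 and 13.98 on the log2 scale in VAV1 vehicle libraries, against 14.31, 14.52 and 14.64 in EV vehicle libraries. All VAV1 libraries were below all EV libraries, with a log2 fold change of -0.59 (SE 0.16, limma adjusted p = 0.0212). MT-CYB, the cytochrome b of complex III, stood at 12.82, 13.27 and 13.08 in VAV1 vehicle libraries, against 13.42, 13.53 and 13.78 in EV vehicle libraries, a log2 fold change of -0.52 (SE 0.16, limma adjusted p = 0.0292). In VAV1 libraries MT-ATP6, a subunit of the ATP synthase proton channel, was at 13.51, 13.999 and 13.83, against 14.13, 14.34 and 14.52 in EV libraries, a log2 fold change of -0.55 (SE 0.18, limma adjusted p = 0.0374). Each of these groups was separate. MT-CO3, the third core subunit of complex IV, had a log2 fold change of -0.42 (SE 0.13, limma adjusted p = 0.0280). MT-CO1, the catalytic heme and copper subunit, had the similar value of -0.49, with an adjusted p of 0.0532 in limma, just missing the threshold of 0.05. MT-ATP8 stood at -0.39. In complex I, MT-ND4, MT-ND4L, MT-ND5 and MT-ND6 had log2 fold changes of -0.48, -0.41, -0.55 and -0.61, MT-ND1 and MT-ND3 had -0.20 and -0.13, and MT-ND2 alone was above 0 at 0.05.

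These counts rest on few libraries. The number of mitochondrial members called lower by limma was 0 without the second or without the third EV vehicle library, 1 without the first VAV1 vehicle library, 2 without the third and 9 without the second. It was 10 and 9 without the first and the second saracatinib library, which share the estimate of spread, and 10 when only the 6 libraries of the 2 groups were fitted. No mitochondrial member was called higher under any of these settings, and under the 5 other scalings the median of the 13 stayed between -0.51 and -0.48.

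With saracatinib, the mitochondrial subunits of complexes III and IV rose in VAV1 cells and those of complex I did not pass the test. The called genes were MT-CO1, MT-CO2, MT-CO3 and MT-CYB, 4 of 13, against 18.3% of all genes called higher and 37.3% in either direction, and none was called lower. The median over the 13 was 0.37, against -0.01 over all genes. MT-CO1 stood at 16.45, 15.94 and 16.19 with saracatinib, against 15.29, 15.71 and 15.61 with vehicle, without overlap (log2 fold change 0.66, SE 0.17, limma adjusted p = 0.0195). MT-CO2 stood at 14.91, 14.43 and 14.61 with saracatinib (log2 fold change 0.75, SE 0.16, limma adjusted p = 0.00850), and MT-CYB at 13.93, 13.44 and 13.65 (log2 fold change 0.61, SE 0.16, limma adjusted p = 0.0165). These lie above every VAV1 vehicle value given above. MT-CO3 changed by 0.49. The complex V genes MT-ATP6 and MT-ATP8 had 0.44 and 0.38 and were not called (limma adjusted p = 0.0878 and 0.118). The complex I genes ran from 0.04 for MT-ND2 to 0.37 for MT-ND4. Leaving out 1 library gave 2 to 8 calls by limma, all higher, with 2 without the third and 8 without the second saracatinib library.

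Against EV vehicle, VAV1 cells with saracatinib had no mitochondrial member called by limma in either direction, and 2 of 13 had an unadjusted p under 0.05. The share of all genes called was 43.4%. Median log2 fold change was -0.01, with MT-ND5 and MT-ND6 lowest at -0.46 and -0.53 and MT-CO1 highest at 0.17. The 3 comparisons of the vehicle experiment share libraries, so their values are set side by side and are not independent of each other.

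In RAC1 P29S cells the mitochondrial genes stayed close to EV. MT-CO3 alone was called, at 15.07, 15.12 and 15.19 in RAC1 P29S libraries, against 15.24, 15.22 and 15.32 in untreated EV libraries (log2 fold change -0.13, SE 0.04, limma adjusted p = 0.0339), against 15.5% of all genes called lower and 31.1% in either direction. The groups are separate, and without the first or second RAC1 P29S library or the first EV library limma called none. Without the third EV library, which had the highest level of each of the 13 in its group, limma called 4 members higher and none lower. The 13 had a median of 0.00 and ran from -0.13 to 0.15. The difference between the VAV1 and RAC1 P29S effects, tested as an interaction over all 15 libraries, was called for 0 of 13 mitochondrial members (6 at an unadjusted p under 0.05), with a median difference of -0.47; limma called 15.8% of all genes in that test.

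**Figure D2:**
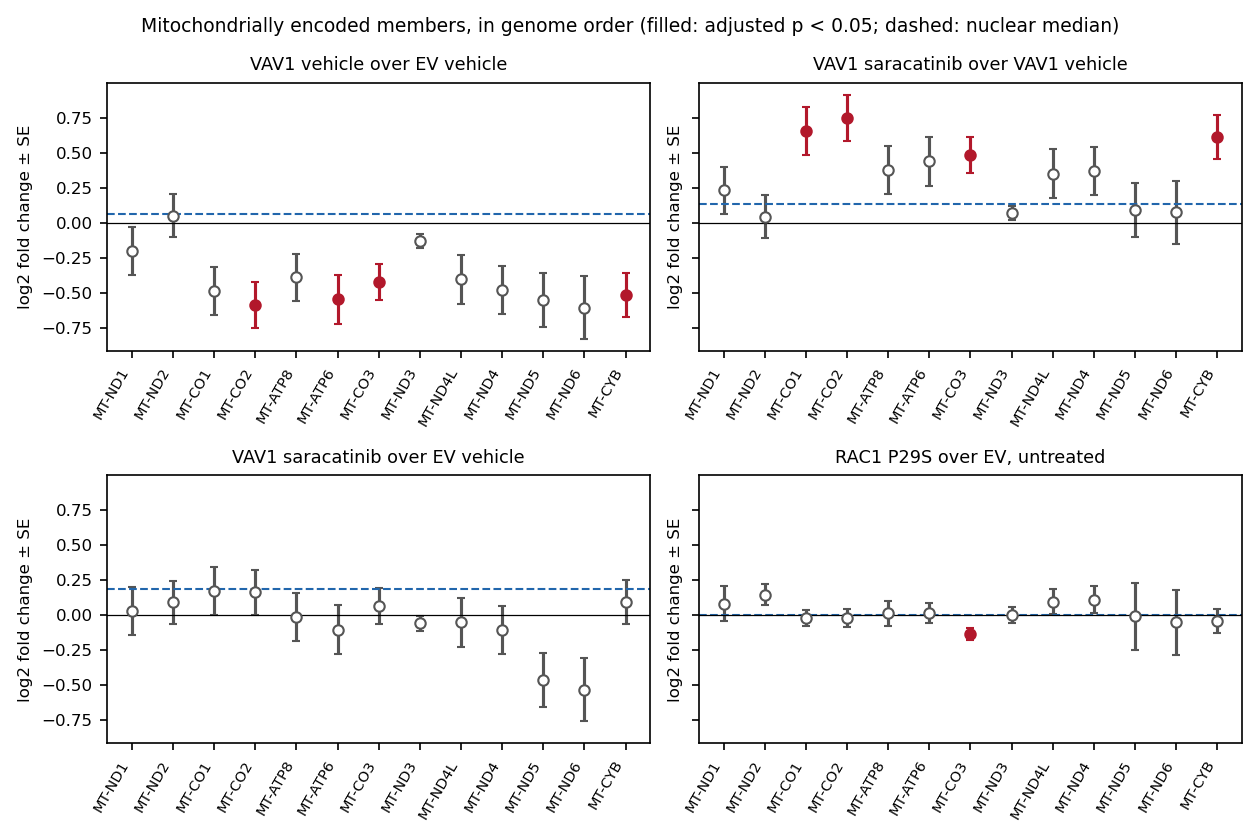
Log2 fold change with its limma standard error for the 13 mitochondrially encoded members in genome order, in 4 comparisons; filled red points have an adjusted p under 0.05 and the dashed line is the median of the nuclear members. With VAV1, 12 of 13 points lie below 0, and with saracatinib in VAV1 cells the complex IV and cytochrome b genes stand highest.

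Per length, the 13 mitochondrially encoded members kept nearly the same order in all groups. Normalized counts per kb were highest for MT-CO3, at 55257 ± 6312 with saracatinib, 39481 ± 5465 in VAV1 vehicle and 52859 ± 5756 in EV vehicle libraries (SD, n = 3 each). MT-CO1 came next at 49122 ± 8695 per kb with saracatinib, 31031 ± 4587 in VAV1 vehicle and 43465 ± 6239.9 in EV vehicle libraries, within 1 SD of MT-CO3 in the saracatinib group. MT-CO2 and MT-ATP6 held the next places, MT-CO2 with 33777 ± 3814 and MT-ATP6 with 30400.2 ± 4094 per kb in EV vehicle libraries, which overlap within their SD. MT-ND6, the single gene here read from the light-strand promoter, was lowest in all 5 groups, with 3649 ± 1066 with saracatinib, 3421 ± 722 in VAV1 vehicle and 5162 ± 635 in EV vehicle libraries, and 4177 ± 516 in RAC1 P29S and 4486 ± 1632 in untreated EV libraries. It lies directly after MT-ND5 on the opposite strand. Whether strand was used in the quantification is not given, so reads of the other strand may be counted for MT-ND6, and its level is uncertain to that extent.

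Each member was next set against the mean of the 13 in its library. The SD of this relative level within a group was below that of the mitochondrial to nuclear ratio for all 13 members in the 3 vehicle-experiment groups, with median SDs of 0.0516 with saracatinib, 0.0658 in VAV1 vehicle and 0.0324 in EV vehicle libraries. In RAC1 P29S and in untreated EV libraries it was below for 11 of 13, and above for MT-ND5 and MT-ND6. MT-ND2, a membrane subunit of complex I, lay 0.25, 0.35 and 0.26 above that mean with saracatinib, 0.53, 0.57 and 0.67 in VAV1 vehicle and 0.14, 0.11 and 0.16 in EV vehicle libraries, on the log2 scale. The VAV1 vehicle values were highest and the EV values lowest, without overlap. MT-CO2 lay 1.19, 1.23 and 1.20 above it with saracatinib, 0.74, 0.79 and 0.89 in VAV1 vehicle and 0.97, 1.02 and 0.97 in EV vehicle libraries. Here the VAV1 vehicle values were lowest and the saracatinib values highest, without overlap. MT-CO2 minus MT-ND2, a pair chosen after their values were seen, was 0.94, 0.88 and 0.94 with saracatinib, 0.21, 0.22 and 0.22 in VAV1 vehicle and 0.84, 0.91 and 0.81 in EV vehicle libraries. All 3 VAV1 vehicle values lay below the 6 others, with an SD of 0.01 within the group. No test was run on these relative levels. In RAC1 P29S libraries the same difference was -0.09, -0.13 and -0.11, against 0.10, 0.05 and 0.03 in untreated EV libraries, again lower without overlap and by a smaller amount.

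Other members shifted within the pool too. MT-ND1 lay -1.12, -1.16 and -1.15 from the mean with saracatinib, -1.03, -0.99 and -1.06 in VAV1 vehicle and -1.18, -1.32 and -1.18 in EV vehicle libraries, highest with VAV1. MT-ND5 lay -0.31, -0.42 and -0.42 from it with saracatinib, -0.06, -0.03 and -0.28 in VAV1 vehicle and 0.01, 0.03 and 0.04 in EV vehicle libraries. The saracatinib group was below both others. MT-ATP8 and MT-ND4L moved least, with mean differences of 0.02 and 0.00 for VAV1 against EV. In the untreated experiment MT-ND2 lay 0.81, 0.80 and 0.87 above the mean in RAC1 P29S and 0.72, 0.73 and 0.63 in EV libraries. MT-ND4, another membrane subunit of complex I, lay 1.17, 1.23 and 1.25 above it in RAC1 P29S and 1.12, 1.12 and 1.12 in EV libraries. RAC1 P29S was higher without overlap for both.

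**Figure D3:**
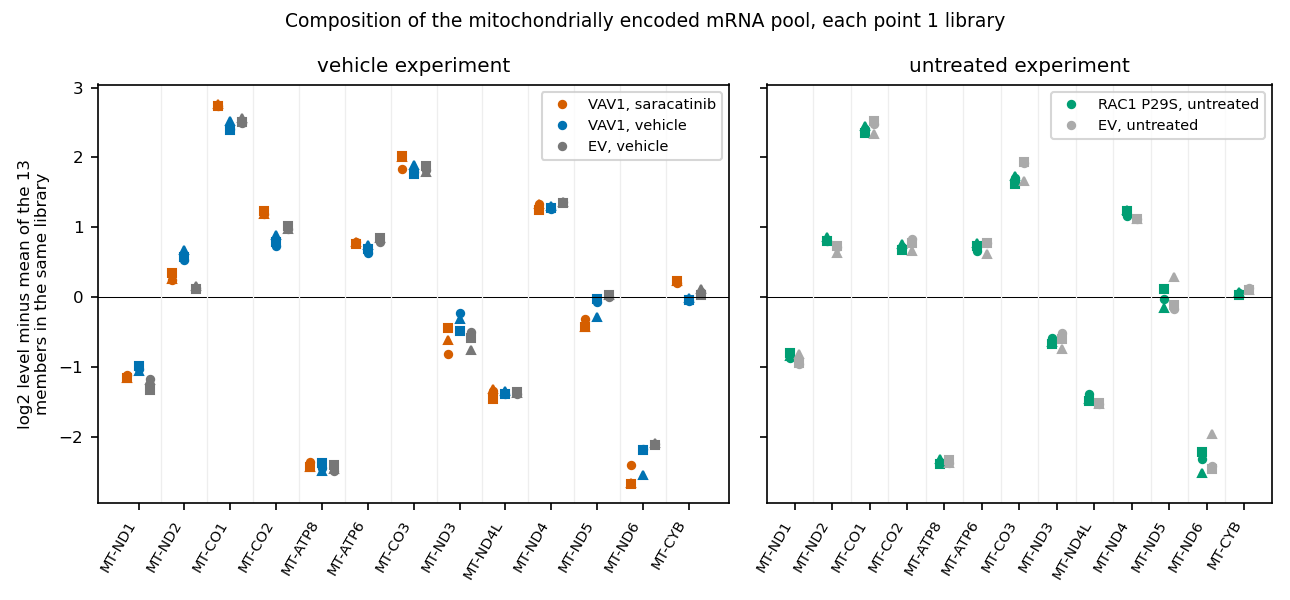
Level of each mitochondrially encoded member minus the mean of the 13 in the same library (log2), in genome order; each point is 1 library and marker shapes give the replicate number. VAV1 vehicle libraries hold relatively more MT-ND2 and less MT-CO2 than EV vehicle or saracatinib libraries, and the third EV untreated library stands apart at MT-ND5 and MT-ND6.

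Some of these genes share sequence. MT-ATP8 and MT-ATP6 overlap on the heavy-strand transcript, so reads from this stretch cannot be assigned to one of them. The shared stretch is shown because it is 22.2% of MT-ATP8, with the start codon of MT-ATP6 in capitals (chrM:8527-8572, GRCh38, GENCODE 29, plus strand, 46 bases).
MT-ATP8 and MT-ATP6 overlap: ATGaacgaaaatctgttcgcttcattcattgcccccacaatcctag
MT-ND4L and MT-ND4 share 7 bases. Nuclear copies of mitochondrial DNA are a further source of shared reads. MTATP6P1, a nuclear copy of a mitochondrial stretch named after MT-ATP6 and chosen here after its values were seen, stood at 11.53, 10.97 and 11.26 with saracatinib, 10.52, 10.95 and 10.87 in VAV1 vehicle and 11.22, 11.36 and 11.55 in EV vehicle libraries. MT-ATP6 itself stood at 14.50, 13.97 and 14.20 with saracatinib and at the values above in the other groups. The copy was lowest in VAV1 vehicle libraries, with a log2 fold change of -0.60 for VAV1 against EV (limma adjusted p = 0.0114). MTRNR2L12, a nuclear copy of the mitochondrial 16S rRNA gene, also chosen after its values were seen, had log2 fold changes of -0.49 for VAV1 against EV and 0.82 for saracatinib against vehicle (limma adjusted p = 0.000723 and 1.75e-05). MTRNR2L8, another copy of that gene, had -0.41 and 0.95, both called. For VAV1 against EV, MTND2P28 had 0.03, near the value of MT-ND2 above, and MTCO1P12 had -0.21 (SE 0.27), of the same sign as MT-CO1. For saracatinib against vehicle they had 0.20 and 0.41, and limma called neither in either comparison. MTND1P23 averaged 6.07 ± 0.12 in VAV1 vehicle and 5.84 ± 0.03 in EV vehicle libraries (SD, n = 3 each), while the log2 fold change of MT-ND1 was negative. How many reads of these copies came from the mitochondrial genes was not tested.

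With VAV1 the nuclear members were called in both directions, higher about as often as all genes and lower less often. Of 81 nuclear members tested, 21 rose and 7 fell, against 23.6% and 20.1% of all genes, and the median was 0.07. Of the 21, COX6B2 passed the filter only through the VAV1 group, and without it 20 of 80 rose. Under total-count scaling without the mitochondrial genes the split was 15 higher and 9 lower, and without the first or the third VAV1 vehicle library or the third EV library limma called 16 in all. Apart from ATP5E, COX6B2 and COX7B2, no called nuclear member changed by more than 0.34 on the log2 scale, after rounding. By complex, limma called 7 of 36 nuclear subunits higher and 2 lower in complex I, 2 and 1 of 4 in complex II, 3 and 1 of 9 in complex III, 3 and 2 of 13 in complex IV, and 4 and 1 of 15 in complex V. The 3 called higher in complex IV include COX6B2, whose call is no test because of the filter. In complex I the 7 core subunits encoded in the nucleus had 1 call, NDUFS1, and the 29 accessory subunits had 7 higher and 1 lower.

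ATP5E, the epsilon subunit of the central stalk of ATP synthase, fell most. It stood at 12.32, 12.08 and 12.16 in VAV1 vehicle libraries, against 12.92, 13.05 and 12.85 in EV vehicle libraries. All VAV1 values were below all EV values (log2 fold change -0.75, SE 0.07, limma adjusted p = 1.08e-06), which is 5098, 4325 and 4586 normalized counts in VAV1 vehicle libraries, against 7751, 8478 and 7370.4 in EV vehicle libraries. NDUFA13, an accessory subunit of complex I also known as GRIM-19, stood at 11.34, 11.24 and 11.44 in VAV1 against 11.76, 11.55 and 11.60 in EV libraries (log2 fold change -0.30, SE 0.06, limma adjusted p = 0.00155). The groups did not overlap. Also lower were COX5B, a subunit on the matrix side of complex IV (-0.18), COX7A2 (-0.18, with overlapping groups), and 3 catalytic or core proteins, SDHA (-0.16), NDUFS1 (-0.16) and UQCRC1 (-0.12). SDHA, the flavoprotein of succinate dehydrogenase, was at 10.67, 10.75 and 10.73 in VAV1 vehicle libraries, against 10.87, 10.86 and 10.90 in EV vehicle libraries.

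Among the risers were the ATP synthase subunit c gene ATP5G1 (0.34), UQCR10 of complex III (0.29), the accessory complex I genes NDUFB3 (0.27), NDUFS4 (0.24) and NDUFA9 (0.24), and SDHB (0.24), the iron-sulfur subunit of complex II. ATP5B, the catalytic beta subunit of ATP synthase, rose by 0.23. NDUFB3 was at 9.50, 9.31 and 9.45 in VAV1 against 9.04, 9.24 and 9.18 in EV libraries, without overlap. COX7A2L rose by 0.24 (SE 0.06, limma adjusted p = 0.00340).

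Promoters are shown for some of the members that moved in several comparisons. The GABPA motif, an ETS factor site long known from respiration genes, is in capitals. Others that moved so, such as ATP5G1, COX7A2 and COX7B2, are not shown. Each window runs from 250 bases before to 50 bases after the RefSeq start (GRCh38.p14), 5′ to 3′ on the gene's strand, at chr20:59032286-59032585, minus strand for ATP5E, chr2:97645812-97646111, plus strand for COX5B, chr19:19515975-19516274, plus strand for NDUFA13 and chr5:132866392-132866691, plus strand for UQCRQ.
ATP5E: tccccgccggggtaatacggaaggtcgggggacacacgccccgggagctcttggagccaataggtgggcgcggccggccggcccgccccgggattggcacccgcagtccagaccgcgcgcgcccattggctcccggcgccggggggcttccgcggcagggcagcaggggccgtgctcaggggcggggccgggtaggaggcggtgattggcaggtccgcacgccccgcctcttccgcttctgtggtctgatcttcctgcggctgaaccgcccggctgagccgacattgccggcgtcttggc
COX5B: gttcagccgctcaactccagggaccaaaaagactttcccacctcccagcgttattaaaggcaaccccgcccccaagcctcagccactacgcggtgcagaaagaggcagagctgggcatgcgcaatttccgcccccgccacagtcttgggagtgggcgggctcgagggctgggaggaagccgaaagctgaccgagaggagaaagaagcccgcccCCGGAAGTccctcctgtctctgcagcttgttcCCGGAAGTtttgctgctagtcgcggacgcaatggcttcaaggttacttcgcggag
NDUFA13: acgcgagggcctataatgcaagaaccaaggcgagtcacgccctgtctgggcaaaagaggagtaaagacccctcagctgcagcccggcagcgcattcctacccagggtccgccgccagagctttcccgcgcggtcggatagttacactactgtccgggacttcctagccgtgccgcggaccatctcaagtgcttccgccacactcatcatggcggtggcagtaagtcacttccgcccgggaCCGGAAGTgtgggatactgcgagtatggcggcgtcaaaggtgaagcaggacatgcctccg
UQCRQ: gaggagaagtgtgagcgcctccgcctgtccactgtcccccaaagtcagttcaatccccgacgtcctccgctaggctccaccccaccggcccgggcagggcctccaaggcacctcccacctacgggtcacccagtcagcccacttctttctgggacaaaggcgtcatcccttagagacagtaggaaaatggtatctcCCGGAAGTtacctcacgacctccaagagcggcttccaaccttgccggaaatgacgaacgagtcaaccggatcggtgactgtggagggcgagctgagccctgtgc
COX5B has 2 matches to CCGGAAGT, NDUFA13 and UQCRQ have 1 each, and ATP5E has none. Of the 79 nuclear subunits, 63 had a window, and 11 of these (17.5%) held CCGGAAGT on either strand, against 4.95% of the 27305 genes of the table. By complex these were 2 of 31 windows in complex I (6.45%), 1 of 3 in II, 3 of 7 in III, 2 of 11 in IV and 3 of 11 in V. The share of moved members with a match was not counted, so a link between the motif and these changes was not tested. These are matches of letters, and no other motif is shown. Other genes lie close to some of these starts. PRELID3B, the neighbour of ATP5E on the same strand with its end 762 bases upstream in GENCODE 29 and chosen here after its values were seen, stood at 11.94, 11.91 and 11.97 with saracatinib, 11.77, 11.75 and 11.78 in VAV1 vehicle and 12.51, 12.62 and 12.53 in EV vehicle libraries. Its log2 fold changes were -0.79 for VAV1 against EV, 0.17 for saracatinib against vehicle and -0.82 for RAC1 P29S against EV, each called by limma. Both genes were thus lower with VAV1 and RAC1 P29S, while with saracatinib ATP5E changed by 0.73 and PRELID3B by less. ATP5E shares 23.2% of its annotated exon bases with TUBB1 on the opposite strand, UQCRQ 30.0% with GDF9, NDUFA1 44.5% with RNF113A and NDUFB2 38.9% with BRAF (GENCODE 29). Others on the opposite strand include ATP5I with 49.9% and NDUFB11 with 44.9%. Whether strand was used in the quantification is not given in the sources used here, so the levels of such members are uncertain to that extent. Further members share exon bases with a gene on the same strand, where strand cannot part the reads. Among these are NDUFA7 (75.9%), ATP5O (70.3%), NDUFB8 (65.4%), COX8A (34.5%), COX6A1 (30.6%) and NDUFA13 (18.9%).

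With saracatinib, nuclear subunits of complex IV rose together in VAV1 cells. Of 81 nuclear members, 31 rose and 2 fell, against 18.3% and 19.1% of all genes, and the median was 0.14. In complex IV 11 of 13 subunits tested rose, with a median of 0.38 (0.35 to 0.41 under the other scalings), and COX5A (0.05) and COX8A (0.15) were not called. Complex I had 11 of 36 higher, complex II 2 of 4, complex III 4 of 9 and complex V 3 of 15, with medians of 0.13, 0.04, 0.11 and 0.08. Without the second VAV1 vehicle library limma called 21 nuclear members.

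ATP5E was at 12.83, 12.94 and 12.98 with saracatinib, above all 3 VAV1 vehicle libraries (log2 fold change 0.73, SE 0.07, limma adjusted p = 2.18e-06). COX5B was at 10.75, 10.91 and 10.81 with saracatinib, against 10.29, 10.17 and 10.26 with vehicle (log2 fold change 0.58, SE 0.06, limma adjusted p = 5.55e-06). COX7A2, which sits in the membrane part of complex IV, was at 11.27, 11.44 and 11.34 with saracatinib, against 10.99, 10.83 and 10.78 with vehicle (log2 fold change 0.48, SE 0.07, limma adjusted p = 0.000127). For all 3 genes the saracatinib and vehicle libraries were separate. NDUFA13 rose by 0.47, UQCRQ of complex III by 0.46, COX6C by 0.45, NDUFA4, a subunit first assigned to complex I and now placed in complex IV, by 0.43, and NDUFB1 by 0.42. COX7C and ATP5H, a stator subunit of ATP synthase, rose by 0.39 and 0.37. NDUFC2 fell by 0.16, and so did the readthrough transcript ATP5J2-PTCD1, by 0.36, which shares 94.2% of its exon bases with PTCD1.

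Set against EV vehicle cells, VAV1 cells with saracatinib had 42 of 81 nuclear members higher and 2 lower, against 22.4% and 21.0% of all genes, with a median of 0.19. Without COX6B2, which EV vehicle libraries hold under the filter, 41 of 80 were higher. The 2 lower members were SDHA (-0.28) and NDUFV1 (-0.15), the subunit of complex I that binds NADH. The log2 fold changes of the members with the largest changes included 0.53 for NDUFA1, 0.53 for UQCRQ, 0.52 for NDUFA5, 0.48 for COX7B and 0.43 for NDUFS4, all called. For NDUFA1, the 3 comparisons gave 0.22 for VAV1 against EV, 0.32 for saracatinib against vehicle and 0.53 for saracatinib against EV vehicle. ATP5E gave -0.75, 0.73 and -0.02 in that order, the last not called. COX5B gave -0.18, 0.58 and 0.41, and was called in all of them.

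In RAC1 P29S cells the nuclear members split evenly. Of 83 tested, 10 rose and 9 fell, against 15.6% and 15.5% of all genes, with a median of -0.0016. Without COX6B2, which untreated EV libraries hold under the filter, 9 of 82 rose. Upper-quartile scaling gave 12 higher and 7 lower. ATP5E was at 12.40, 12.55 and 12.38 in RAC1 P29S libraries, against 13.25, 13.46 and 13.26 in untreated EV libraries (log2 fold change -0.88, SE 0.07, limma adjusted p = 4.78e-06). NDUFA4 was at 11.26, 11.45 and 11.13 in RAC1 P29S libraries, against 11.78, 11.98 and 11.72 in untreated EV libraries (log2 fold change -0.54, SE 0.09, limma adjusted p = 0.00124). Each gene was lower in all 3 RAC1 P29S libraries than in any EV library. NDUFB6 (-0.30), COX7A2 (-0.28), NDUFA13 (-0.26), COX7B (-0.21), COX8A (-0.20), UQCRQ (-0.19) and NDUFB2 (-0.17) also fell. The risers included ATP5G1 (0.34), UQCR10 (0.31), CYC1 (0.26), the cytochrome c1 of complex III, NDUFA9 (0.22) and UQCRC2 (0.21). Without the first RAC1 P29S library limma called 10 and without the third 12.

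The VAV1 and RAC1 P29S comparisons have no library in common. Of 81 nuclear members tested in both, 8 were called higher in both, which is 38.1% of the 21 higher with VAV1 and 80% of the 10 higher with RAC1 P29S. Over all 13810 genes tested in both, the shares were 46.0% and 69.1%. The 8 were ATP5B, ATP5F1, ATP5G1, COX6B2, COX7B2, NDUFA9, UQCR10 and UQCRC2, and without COX6B2 the shares of members were 35.0% and 77.8%. ATP5E, COX7A2 and NDUFA13 were lower in both, 42.9% of the 7 lower with VAV1 and 33.3% of the 9 lower with RAC1 P29S, against 49.8% and 65.6% over all genes. COX7B was called in opposite directions, 0.24 with VAV1 and -0.21 with RAC1 P29S.

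The difference of these effects, in a limma interaction test, was called for 8 of 81 nuclear members, 7 higher and 1 lower, against 8.14% and 7.70% of all genes. NDUFA1, NDUFA5, NDUFB2, NDUFB3 and NDUFS5 of complex I, UQCRH of complex III and COX7B of complex IV were higher with VAV1 relative to RAC1 P29S, by 0.30 to 0.45, and SDHA was lower (-0.30). COX7B stood at 11.24, 10.87 and 11.05 in VAV1 vehicle and 10.80, 10.95 and 10.71 in EV vehicle libraries, and at 11.15, 11.21 and 10.97 in RAC1 P29S and 11.36, 11.27 and 11.34 in untreated EV libraries. SDHA stood at 10.82, 10.68 and 10.83 in RAC1 P29S and 10.67, 10.70 and 10.56 in untreated EV libraries, with 0.14 there, not called. For ATP5E the difference was 0.12 (limma adjusted p = 0.459) and for ATP5G1 0.00. Leaving out the first or the third VAV1 vehicle, the first or the third EV vehicle, the third RAC1 P29S or the first untreated EV library gave 3 to 5 calls, and upper-quartile scaling gave 3 higher and 2 lower.

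**Figure D4:**
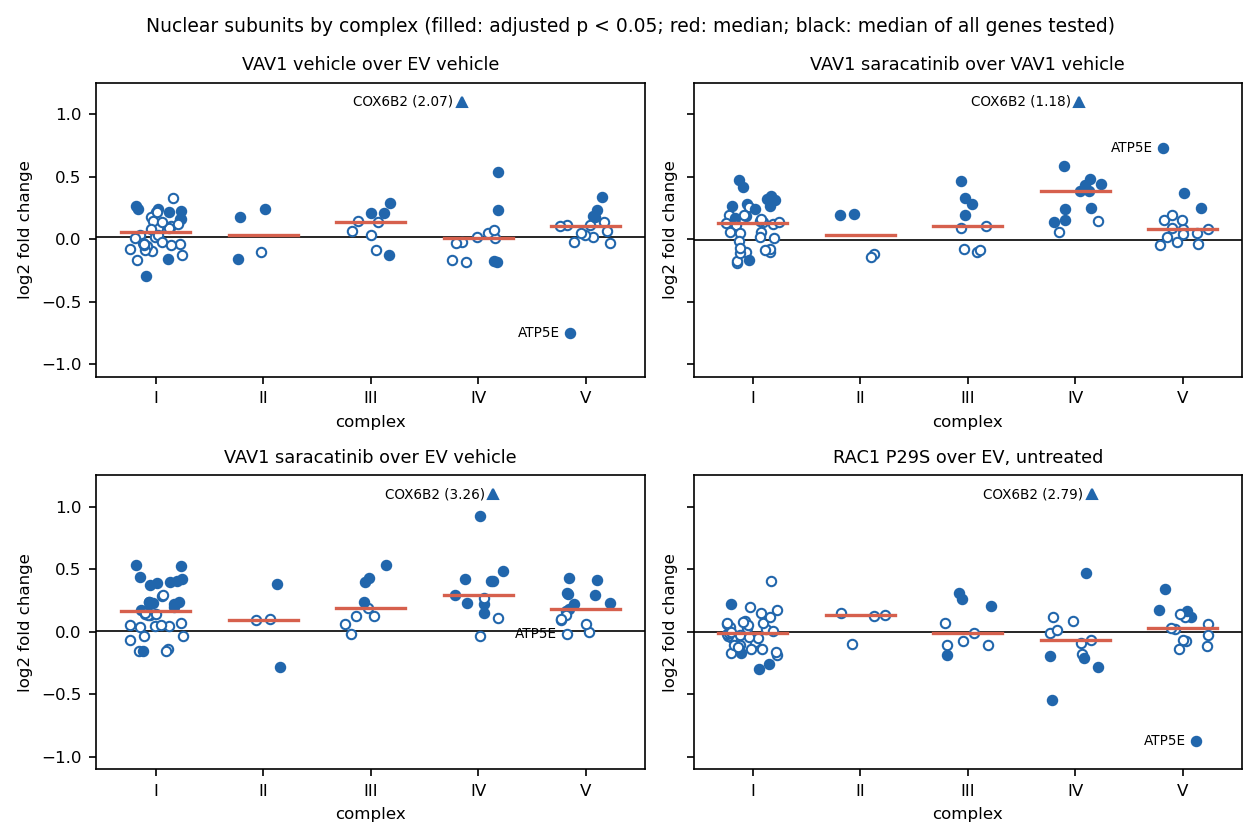
Log2 fold change of each nuclear subunit by complex in 4 comparisons; filled points have a limma adjusted p under 0.05, red lines are medians by complex, the black line is the median of all genes tested, and triangles mark COX6B2, whose value lies beyond the axis and is printed beside it. Complex IV stands highest with saracatinib in VAV1 cells, with a median of 0.38.

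Among nuclear members COX6B2, the testis isoform of the complex IV subunit COX6B, had the largest log2 fold change in all 4 comparisons, at a low level. It had 41.2, 35.9 and 39.1 normalized counts with saracatinib, 10.6, 14.8 and 28.2 in VAV1 vehicle and 2.70, 3.70 and 3.10 in EV vehicle libraries. All 6 VAV1 libraries were above all EV libraries, and so were the saracatinib libraries relative to VAV1 vehicle. RAC1 P29S libraries had 21.4, 20.8 and 33.7 normalized counts, against 2.10, 3.80 and 2.50 in untreated EV libraries, also without overlap. The log2 fold change of 2.07 for VAV1 against EV became 0.79 with a pseudocount of 16 in place of 1, and 2.79 for RAC1 P29S against EV became 1.12. COX6B2 passed the filter on low values only through the groups where it is high, so it had to differ from EV, its calls against EV are no test, and the values are a description. EV libraries lie near 3 normalized counts, raw reads are not known, and no counting interval can be given for these folds. For saracatinib against vehicle the change was 1.18, a call lost without any 1 of the saracatinib libraries or of the first 2 VAV1 vehicle libraries. COX6B1, the common form, had 0.08 with VAV1 and -0.01 with RAC1 P29S, neither called, and its normalized count was 2561 ± 112 in VAV1 vehicle and 2426 ± 43.5 in EV vehicle libraries (SD, n = 3 each).

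COX7B2, an isoform of COX7B also best known from testis, had 202, 201 and 215 normalized counts with saracatinib, 167, 146 and 160.3 in VAV1 vehicle and 117, 95.8 and 113 in EV vehicle libraries, and 149, 141 and 125 in RAC1 P29S and 102, 95.7 and 101 in untreated EV libraries. The groups were separate in every comparison. Its log2 fold changes were 0.54 for VAV1 against EV, 0.38 for saracatinib against vehicle, 0.92 for saracatinib against EV vehicle and 0.47 for RAC1 P29S against EV, all called. COX7A1, the heart and muscle isoform of COX7A, had at most 5.40 normalized counts in a library and was not tested. UQCRHL, a copy of the complex III hinge gene UQCRH, was too low to test in the untreated experiment, while UQCRH had 0.21 for VAV1 against EV, 0.19 for saracatinib against vehicle, both called, and -0.11 for RAC1 P29S against EV, not called. COX4I1 had 0.01, 0.14 and 0.09 and COX6A1 -0.02, 0.24 and -0.09 in the same order, called with saracatinib and not with VAV1 or RAC1 P29S. COX4I2, COX6A2 and COX8C are not analysed here.

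The c-ring of ATP synthase is built from 1 mature protein encoded by 3 genes. ATP5G1 alone was called with VAV1, at 10.98, 10.65 and 10.66 in VAV1 vehicle and 10.42, 10.43 and 10.43 in EV vehicle libraries (log2 fold change 0.34, SE 0.08, limma adjusted p = 0.00251), and with RAC1 P29S, at 10.90, 10.74 and 10.94 in RAC1 P29S and 10.52, 10.47 and 10.56 in untreated EV libraries (log2 fold change 0.34, SE 0.06, limma adjusted p = 0.00271). The groups did not overlap in either. ATP5G2 and ATP5G3 had -0.03 and 0.12 with VAV1 and 0.03 and 0.12 with RAC1 P29S, and with saracatinib the 3 genes had -0.03, 0.09 and 0.05, none of them called.

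**Figure D5:**
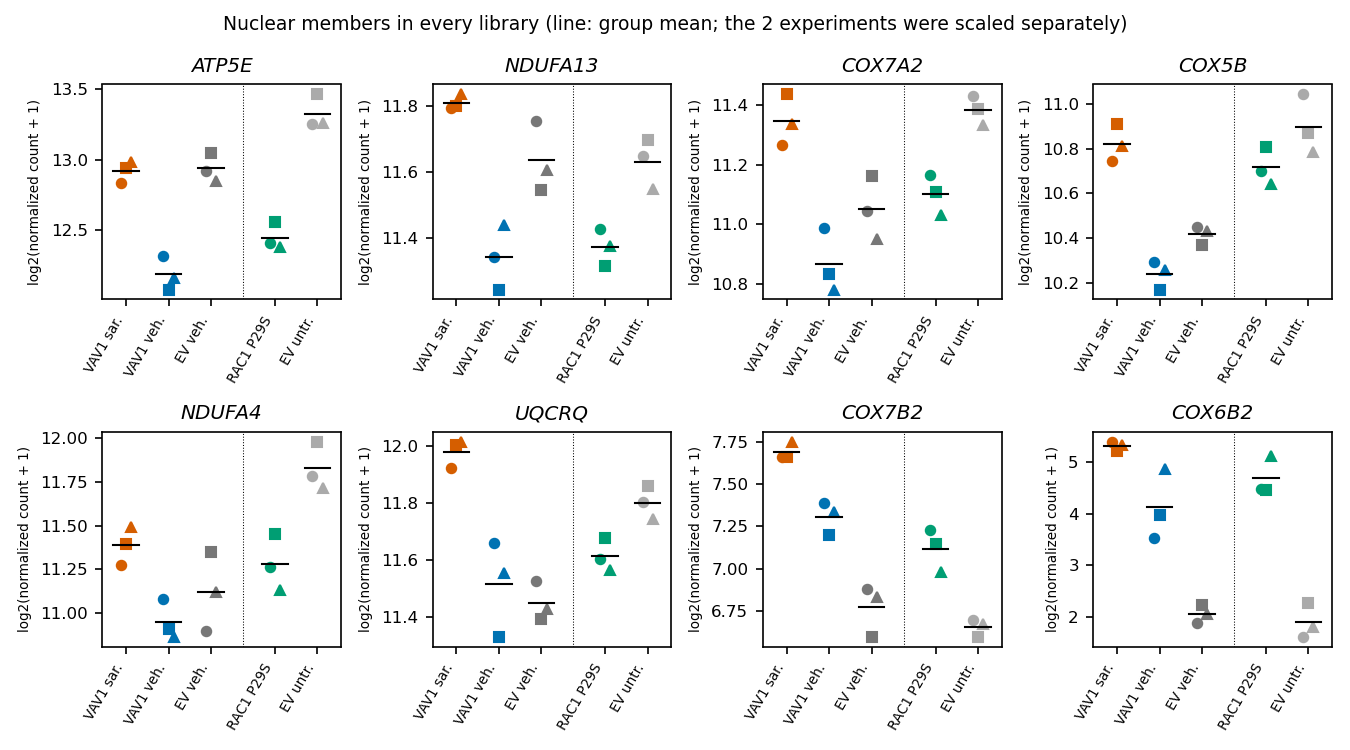
Deposited log2 value of 8 nuclear members in each library, with marker shapes for the replicate number; the experiments were scaled separately, so levels are read within each. ATP5E and NDUFA13 are lower in VAV1 vehicle and RAC1 P29S libraries than in their EV libraries, and COX6B2 and COX7B2 are higher.

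Nuclear subunits are short transcripts, with a median annotated length of 703 nt against 1785.5 nt over all symbols. Genes that are no members and are shorter than 1000 nt had median log2 fold changes of 0.05 for VAV1 against EV, 0.00 for saracatinib against vehicle and 0.04 for saracatinib against EV vehicle. Longer genes had 0.01, -0.01 and -0.01. For VAV1 against EV, 26% of the shorter genes were called higher and 17.7% lower, against 23.5% and 21.4% of the longer ones. For saracatinib against EV vehicle the shorter genes had 25.9% and 17.9% and the longer ones 21.7% and 22.6%. With the trend over length removed, an alternative chosen after seeing the data, limma called 33 nuclear members higher and 3 lower for saracatinib against vehicle. Short and long genes differed least there, and the nuclear counts without the trend are not given here for the other comparisons.

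Many nuclear genes whose proteins make, process or turn over mitochondrial transcripts rose with VAV1. In the same libraries the mitochondrial members MT-CYB, MT-CO2, MT-CO3 and MT-ATP6 were lower. Of 21 genes of mitochondrial RNA processing and turnover, 14 were called higher and 0 lower, against 23.6% and 20.1% of all genes, with a median of 0.29. FASTKD2, an RNA-binding protein of the matrix, rose by 0.50, SLIRP, which binds mitochondrial mRNAs together with LRPPRC, by 0.44, and PNPT1, the mitochondrial polynucleotide phosphorylase, by 0.51. Of 20 genes of mitochondrial transcription and DNA maintenance, 8 rose and 1 fell, against the same shares. TFAM, which packages mitochondrial DNA and starts its transcription, was at 10.82, 10.81 and 10.90 in VAV1 vehicle libraries, against 10.11, 10.27 and 10.14 in EV vehicle libraries (log2 fold change 0.66, SE 0.06, limma adjusted p = 6.3e-07). TFB2M, the second initiation factor, rose by 0.58 and SSBP1, the mitochondrial single-strand binding protein, by 0.46.

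With saracatinib in VAV1 cells none of these genes was called higher, with 11 of 20 transcription and maintenance genes and 7 of 21 processing genes called lower, against 19.1% of all genes. TFAM was at 10.63, 10.63 and 10.67 with saracatinib, below the VAV1 vehicle and above the EV vehicle libraries. POLRMT, the mitochondrial RNA polymerase, had -0.39, SUPV3L1, the helicase of the mitochondrial degradosome, -0.47 and ELAC2, which cuts the 3′ ends of mitochondrial tRNAs, -0.34, all called. Of 12 nuclear regulators, 5 fell and none rose, against 19.1% and 18.3% of all genes, led by PPRC1 (-0.59), a relative of the coactivator PGC-1alpha, and GABPB1 (-0.33), a partner subunit of GABPA. PPARGC1A, the gene of PGC-1alpha, was at 6.49, 5.85 and 6.32 with saracatinib, 3.88, 4.75 and 4.51 in VAV1 vehicle and 5.27, 2.02 and 4.96 in EV vehicle libraries. It was highest with saracatinib, and the second EV library was far below the others of its group. For saracatinib against vehicle in VAV1 cells limma did not call it. Against EV vehicle, with that low library included, the log2 fold change with saracatinib was 2.14 (SE 0.71, limma adjusted p = 0.0332). In RAC1 P29S cells 3 of 20 transcription genes rose and 1 fell, and of the 21 processing genes 3 rose and 1 fell, against 15.6% and 15.5% of all genes, so the shares called higher are near those of all genes. The difference between the VAV1 and RAC1 P29S effects was called for TFAM (0.50), TFB2M (0.61), TFB1M (-0.61), SLIRP (0.46), TRMT10C (0.58) and FASTKD2 (0.42), all but TFB1M more positive with VAV1.

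Among assembly factors, HIGD1A, NDUFAF4 and BCS1L rose with VAV1 and COX17 rose with saracatinib and fell with RAC1 P29S. Of all genes 23.6% and 20.1% were called higher and lower with VAV1, 18.3% and 19.1% with saracatinib and 15.6% and 15.5% with RAC1 P29S. With VAV1, 10 of 24 complex IV factors rose and 1 fell, with HIGD1A at 0.62, COA7 at 0.53 and COA6 at 0.58, and 7 of 17 complex I factors rose and 1 fell, with NDUFAF4 at 0.62 and TMEM126B at 0.60. BCS1L, which inserts the iron-sulfur protein into complex III, rose by 0.57. With saracatinib 6 of 24 complex IV factors rose and 3 fell. COX17, the copper chaperone of complex IV, was at 9.72, 9.70 and 9.84 with saracatinib, against 9.40, 9.25 and 9.35 with vehicle (log2 fold change 0.42, SE 0.07, limma adjusted p = 0.000391), and SURF1 and COX14 rose by 0.38 and 0.39. COX17 fell in RAC1 P29S cells, at 9.70, 9.53 and 9.61 in RAC1 P29S libraries, against 9.93, 10.13 and 10.02 in untreated EV libraries (log2 fold change -0.41, SE 0.08, limma adjusted p = 0.00240). The complex I factors had 1 higher and 3 lower with saracatinib, and 1 higher with RAC1 P29S (NDUFAF3, 0.36). Complex II and III factors had 3 of 10 higher and 1 lower with VAV1, 1 and 2 with saracatinib and 3 and 1 with RAC1 P29S, and the 5 complex V factors had 2, 0 and 1 higher and none lower.

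The symbol rule leaves out 5 genes of these complexes. C15orf48, a paralog of NDUFA4 that can take its place in complex IV, was at 5.36, 5.57 and 5.71 with saracatinib, 2.65, 2.49 and 5.61 in VAV1 vehicle and 2.58, 3.03 and 2.80 in EV vehicle libraries. The third VAV1 vehicle library was as high as the saracatinib libraries and the other two were at the EV level. Since C15orf48 reached 10 normalized counts only in these 4 libraries of the experiment, no test of it is given. NDUFA4L2, another paralog of NDUFA4, fell by 0.72 with saracatinib. USMG5, a small membrane subunit of ATP synthase, had 0.21 with VAV1 and 0.24 with saracatinib, both called, C14orf2 had 0.26 with VAV1, and NDUFAB1, the acyl carrier protein in complex I, 0.23.

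The import genes HSPA9 and TOMM40 rose with VAV1 and RAC1 P29S and fell with saracatinib, and IDH2 of the citric acid cycle fell with VAV1 and RAC1 P29S. With VAV1, 11 of 16 cristae and import genes rose and none fell, against 23.6% and 20.1% of all genes called higher and lower, with HSPA9, the matrix HSP70, at 0.47, the outer membrane channel TOMM40 at 0.45 and TIMM44 at 0.53. With saracatinib 6 fell and 2 rose, against 19.1% and 18.3% of all genes, with the same 3 genes at -0.41, -0.61 and -0.50, and with RAC1 P29S 7 rose and none fell, against 15.6% and 15.5% of all genes. These differences from all genes were not tested. In the citric acid cycle 7 of 17 genes rose and 2 fell with VAV1, 1 rose and 5 fell with saracatinib, and 8 rose and 1 fell with RAC1 P29S. IDH2, the NADP-dependent isocitrate dehydrogenase of the matrix, was at 8.36, 8.18 and 8.22 in VAV1 vehicle libraries, against 9.31, 9.09 and 9.13 in EV vehicle libraries (log2 fold change -0.92, SE 0.09, limma adjusted p = 2.26e-06), and fell by 0.48 with RAC1 P29S. CS, citrate synthase, had -0.35 with saracatinib and 0.36 with RAC1 P29S, both called.

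Among 18 genes of electron carriers and coenzyme Q synthesis, 4 rose and 3 fell with VAV1, 5 rose and none fell with saracatinib, and 3 rose and 3 fell with RAC1 P29S. The shares for VAV1 and RAC1 P29S are near those of all genes, 23.6% and 20.1% with VAV1 and 15.6% and 15.5% with RAC1 P29S, and with saracatinib all genes had 18.3% and 19.1%. CYCS, cytochrome c, rose by 0.57 with VAV1, and the subunits of the electron transfer flavoprotein moved apart, ETFA at 0.38 and ETFB at -0.75 with VAV1 and 0.26 and -0.44 with RAC1 P29S, all called. COQ9 and COQ10B of coenzyme Q synthesis and handling rose by 0.44 and 0.50 with saracatinib. Of 13 carriers and uncoupling genes tested, 7 rose and 1 fell with VAV1, 1 rose and 4 fell with saracatinib, and 7 rose and none fell with RAC1 P29S. The ADP/ATP carriers SLC25A4 and SLC25A5 had 0.50 and -0.30 with saracatinib, both called. The anion channel genes VDAC3 and VDAC2 rose by 0.50 and 0.28 with VAV1, and UCP2, an uncoupling protein homologue, was at 7.08, 7.34 and 7.09 with saracatinib, against 8.09, 8.23 and 8.15 with vehicle (log2 fold change -0.98, SE 0.15, limma adjusted p = 0.000225).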

How the data were processed

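Total RNA of A375 cells was sequenced in 15 libraries of 5 groups. The authors deposited 1 log2 value per gene symbol and library, read from the values as log2 of a normalized count plus 1; kallisto, DESeq2 and GRCh38 are named per the submitters' processing notes, with no versions and no strand setting. Raw reads could not be recovered, so depth is unknown beyond the normalized totals, and no count test or counting interval was made. Groups follow the sample titles. The members, gene lists and comparisons were chosen with earlier results of these data known. limma 3.58.1 (R 4.3.3; trend and robust moderation) was fitted to the 9 vehicle and 6 untreated libraries separately, on genes with at least 10 normalized counts in 3 libraries, two-sided, with Benjamini-Hochberg adjustment over all genes tested and a threshold of 0.05; the difference of effects used all 15. In simulated data, 200 genes with at least 50 normalized counts in 3 libraries were changed. Among those changed by 1 on the log2 scale, 83.0 to 92.0% were recovered over the 4 comparisons within an experiment. Every mitochondrial member was named, and for nuclear members up to 8 per direction with the largest change. These had to be called without overlap and to have at least 50 normalized counts in the higher group. Isoform families were named besides, and so were some further members, such as ATP5B, COX7C, ATP5H and NDUFB2. From each other list up to 3 genes with the smallest adjusted p were named. Isoforms, lengths and overlaps come from GENCODE 29, promoters from RefSeq. Scaling, filter, pseudocount, moderation, libraries and a replicate block were varied.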

Additional observations from a re-analysis of the deposited data

Results flagged for a closer look

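For 8 nuclear members the VAV1 effect differed from the RAC1 P29S effect in limma's test of the difference itself, adjusted over all genes. These are 7 of 81 higher and 1 lower, against 8.14% and 7.70% of all genes, so the members are near the first share and below the second. On the log2 scale the difference, VAV1 effect minus RAC1 P29S effect, was 0.45 for COX7B (0.24 with VAV1, -0.21 with RAC1 P29S, both called), 0.44 for NDUFB3 (0.27 and -0.17), 0.34 for NDUFA5 (0.18 and -0.16), 0.31 for NDUFB2 (0.14 and -0.17) and 0.31 for UQCRH (0.21 and -0.11). It was 0.30 for NDUFS5 (0.16 and -0.14), 0.30 for NDUFA1 (0.22 and -0.08) and -0.30 for SDHA (-0.16 and 0.14). The treatments also differ between the experiments, vehicle in the VAV1 one and none in the RAC1 P29S one, and this cannot be told apart from the oncogene. Groups of 3 libraries are too small for a test of single outlying libraries.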

How the results depend on the processing

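No called member changed sign under any alternative. Leaving out 1 library gave 0 to 10 mitochondrial and 16 to 30 nuclear calls for VAV1 against EV (4 and 28 with all), 2 to 8 mitochondrial and 21 to 35 nuclear calls for saracatinib against vehicle (4 and 33), 0 to 2 mitochondrial and 33 to 46 nuclear calls for saracatinib against EV vehicle (0 and 44), 0 to 4 mitochondrial and 10 to 18 nuclear calls for RAC1 P29S against EV (1 and 19) and 0 to 1 mitochondrial and 3 to 12 nuclear calls for the difference (0 and 8). The log2 ratio of mitochondrial to nuclear members moved by less than the spread between libraries throughout, with -0.61 to -0.32, 0.18 to 0.47, -0.28 to -0.01 and -0.03 to 0.14 in these 4 comparisons over all alternatives. For VAV1 against EV the mitochondrial calls were 7 with upper-quartile scaling, 10 with the 2 groups alone and 1 with the replicate block, and the nuclear calls 17 without trend and robust estimation. That setting gave 0 mitochondrial and 11 nuclear calls for RAC1 P29S and 4 nuclear calls for the difference, for which upper-quartile and quantile scaling gave 5 each. Removing the length trend, chosen after seeing the data, gave 1 mitochondrial call for saracatinib against EV vehicle. For RAC1 P29S the median of nuclear members ran from -0.01 to 0.01 over the other scalings, with changing sign. Over all genes tested, libraries of the same replicate number did not deviate together (correlations of -0.05 to 0.01). A shared day or culture that acts on a small set of genes, such as the mitochondrial members, would not show in these correlations and is not excluded. With the replicate block, 22 of 141 calls of members were lost. The cause of these changes was not tested. With 3 libraries a group, a simulated log2 change of 0.5 was recovered for 53.0 to 66.0% of genes over the 4 comparisons within an experiment. Only 200 genes were changed in the simulation, with noise independent between genes, while far more genes were called in the data. The rates therefore do not carry over to these tests, and how often small changes were missed was not measured.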
